A study of Mus musculus with 3 samples.

Results

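The genes described here are 10 genes of hepatic glucose production and its control by insulin and glucagon: Pck1, G6pc, Fbp1, Ppargc1a, Foxo1, Insr, Irs1, Irs2, Igfbp1 and Gcgr. They were chosen by name, and their accessible chromatin was taken as every peak overlapping the RefSeq gene body or the 50 kb on either side of it. These windows held 246, 232 and 244 peaks in EV replicates 1, 2 and 3, out of 108997, 119230 and 110455 in all. Peaks sharing at least 1 bp were merged across libraries, which gave 294 regions in the windows of the 10 genes out of 139455 in the genome.

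The libraries are ATAC-seq, an assay in which the Tn5 transposase cuts open chromatin and marks it with sequencing adapters, from liver hepatocytes of wild-type mice. All 3 libraries are labelled as group EV. By these labels the animals received AAV8-TBG-Cre, an empty virus with Cre under the TBG promoter, which is active in hepatocytes. Hepatocytes were collected on day 4 after injection by liberase digestion and Percoll enrichment, and nuclei came from a sort whose marker the labels do not name. Hepatocytes given the Sox4 virus are not analysed here, so no treatment was compared and no test between groups was possible. The labels give no age, nor do they tie each library to an animal of its own, so the SDs below may be partly technical.

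Between meals the liver makes glucose from lactate, amino acids and glycerol. Pck1 encodes the cytosolic phosphoenolpyruvate carboxykinase, which acts early in this pathway on lactate and amino acids. Fbp1 encodes the fructose bisphosphatase in its middle, and G6pc the catalytic subunit of glucose-6-phosphatase that releases free glucose. Glucagon acts through its receptor Gcgr and cAMP to raise transcription of Pck1 and G6pc, with the coactivator PGC-1 alpha, encoded by Ppargc1a, and the forkhead factor Foxo1 taking part. Insulin acts through its receptor Insr and the adaptor proteins Irs1 and Irs2, and the kinase cascade below them keeps Foxo1 out of the nucleus. Igfbp1, a secreted binding protein for insulin-like growth factors, and Irs2 are themselves known targets of Foxo1.

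The libraries held 96066404, 116147036 and 117450440 tags, and a height below is the highest pileup of extended tags at a summit per 1000000 tags of its library. It is a height at 1 position and needs no correction for gene length. The library labelled EV replicate 2 stood apart at Sox4, the gene carried by the virus of the other group. Its height there was 21.9, against 1.33 and 1.14 in replicates 1 and 3. Whether its label is right was not tested. The SDs below include this library, and results that rest on it are also given without it. The label hepatocyte was checked at the listed starts of its markers: all 4 with a start in the promoter table, Alb, Apoa1, Hnf4a and Fga, had a peak in all 3 libraries, with summed heights of 32.1, 29.1 and 32.4. No peak lay at the starts of the Kupffer cell and macrophage markers Clec4f, Cd5l and Ptprc or of the endothelial markers Stab2 and Clec4g. Of the stellate, cholangiocyte and islet markers, 1 of 3, 1 of 3 and 0 of 3 had a peak in all libraries. In bulk libraries, fewer cells with an open site and a lower signal in every cell cannot be told apart.

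The promoter sequences of 5 of the genes are shown because they hold the tallest and the lowest starts described next, and because Pck1, G6pc, Igfbp1 and Irs2 are textbook targets of glucagon or insulin. Each is the 250 bases before the RefSeq transcription start, 5′ to 3′ on the gene's strand, from the promoter table of GRCm38.p6 (mm10). Capitals mark matches on either strand to TGACG, the core of the cAMP response element, to TNTTTTG, the insulin response sequence bound by Foxo1, and to the TATA box TATAAA.
Pck1, chr2:173152823-173153072, plus strand: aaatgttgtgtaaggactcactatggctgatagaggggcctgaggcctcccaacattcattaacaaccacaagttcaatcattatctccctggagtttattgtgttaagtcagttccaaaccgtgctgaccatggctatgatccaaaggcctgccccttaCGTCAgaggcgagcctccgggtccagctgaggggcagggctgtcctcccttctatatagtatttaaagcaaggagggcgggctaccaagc
G6pc, chr11:101367466-101367715, plus strand: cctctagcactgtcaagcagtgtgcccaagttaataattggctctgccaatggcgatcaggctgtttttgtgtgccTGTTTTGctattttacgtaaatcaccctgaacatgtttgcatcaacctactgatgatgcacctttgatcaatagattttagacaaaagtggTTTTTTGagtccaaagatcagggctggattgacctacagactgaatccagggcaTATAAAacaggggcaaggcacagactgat
Igfbp1, chr11:7197537-7197786, plus strand: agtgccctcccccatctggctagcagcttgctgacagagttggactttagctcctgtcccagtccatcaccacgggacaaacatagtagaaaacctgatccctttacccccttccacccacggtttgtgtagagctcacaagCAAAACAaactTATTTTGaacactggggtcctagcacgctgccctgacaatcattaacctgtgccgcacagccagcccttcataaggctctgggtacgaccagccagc
Irs2, chr8:11008930-11009179, minus strand: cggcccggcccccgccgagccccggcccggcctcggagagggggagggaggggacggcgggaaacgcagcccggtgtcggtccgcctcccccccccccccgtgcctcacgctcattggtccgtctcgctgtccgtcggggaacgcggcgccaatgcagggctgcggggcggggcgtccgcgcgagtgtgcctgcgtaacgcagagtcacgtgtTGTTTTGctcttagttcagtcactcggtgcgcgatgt
Ppargc1a, chr5:51567726-51567975, minus strand: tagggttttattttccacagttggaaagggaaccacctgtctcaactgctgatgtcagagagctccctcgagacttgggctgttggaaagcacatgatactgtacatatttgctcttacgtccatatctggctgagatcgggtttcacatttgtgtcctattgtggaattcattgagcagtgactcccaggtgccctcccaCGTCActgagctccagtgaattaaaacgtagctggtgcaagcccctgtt

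In these windows the cAMP core motif lay at bases -90 to -86 of Pck1 and -49 to -45 of Ppargc1a, counted from the start, and also at -118 to -114 of Irs1. The core motif occurs in 3 of the 9 members with a listed start and in 20.5% of 17274 promoters. The whole palindrome TGACGTCA was found in 0 of the 9 and in 2.03% of all promoters. The insulin response sequence was found in 4 of the 9, against 15.2% of all promoters. G6pc carried it at -174 to -168 and at -83 to -77, Igfbp1 on opposite strands at -108 to -102 and -97 to -91, and Irs2 at -37 to -31. Irs1 also held 2 matches. The HNF1 motif GTTAAT, named for a hepatocyte factor, was found in 3 of the 9, at -192 to -187 of Pck1, -221 to -216 of G6pc and -56 to -51 of Igfbp1, against 5.93% of all promoters. TATAAA was found in G6pc alone among the 9, at -29 to -24, and in 12.5% of all promoters. The other motifs searched were GTAAACA (0 of 9, 2.61% of all promoters), TTGCNNAA (0 of 9, 9.22%), CAAAGTC (0 of 9, 3.70%), CACGTG (2 of 9, 6.72%) and CCAAT (4 of 9, 36.7%). The E-box CACGTG of Irs1 overlaps the cAMP core motif of that gene, at -115 to -110. A match describes the letters only and shows no binding.

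The promoters of all 9 members with a listed start were open. Each had a peak within 1000 bp of the start in all 3 libraries, where 63.9% of the 17274 genes with a listed start did. Openness of promoters differs with CpG content, the density of CG dinucleotides relative to that given by base composition. Among all genes, reproducible promoter peaks were found for 93.2% of the 8050 with a CpG ratio of 0.6 or more and for 38.3% of the 9224 below it. The members fell on both sides of that value. Foxo1, Irs2, Irs1 and Gcgr had ratios of 1.04, 1.03, 0.896 and 0.776. Ppargc1a, Pck1, Igfbp1, Fbp1 and G6pc had ratios of 0.347, 0.310, 0.301, 0.297 and 0.172, so 5 of the 9 belonged to the class that is mostly without a reproducible peak. The 3 enzyme genes of gluconeogenesis were all in it.

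The heights at the starts spanned a wide range. Irs2, the adaptor gene, and Pck1 were the tallest. Irs2 reached 10.6, 10.1 and 9.70 in replicates 1, 2 and 3 (10.1 ± 0.461, SD, n = 3), and Pck1 reached 9.68, 10.0 and 10.5 (10.1 ± 0.388). Their library values overlapped, and they stood at the 96.1 and 95.8 percentiles of the 11036 promoters with a peak in all libraries, whose median was 6.13 and whose quartiles were 3.72 and 7.81. For Insr the promoter table gave no start, and the 2 ends of the gene body at chr8:3150922-3279649 were used instead. A peak stood at its higher-coordinate end with heights of 9.08, 10.3 and 9.56 (9.63 ± 0.592), and none at its lower-coordinate end. The values of Insr overlapped those of Irs2 and Pck1.

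Fbp1, Irs1 and Igfbp1 formed a middle group. Fbp1 had heights of 8.17, 7.55 and 8.45 (8.06 ± 0.462, SD, n = 3), Irs1 of 7.49, 8.54 and 7.40 (7.81 ± 0.633), and Igfbp1 of 8.40, 8.39 and 6.45 (7.75 ± 1.12). The libraries of these 3 genes overlapped each other, and all lay below the lowest value of Insr. G6pc, Foxo1 and Gcgr stood near the median of open promoters. G6pc had 6.96, 5.12 and 6.03 (6.04 ± 0.921), Foxo1 had 6.09, 5.98 and 6.04 (6.03 ± 0.0572), and Gcgr had 6.78, 4.66 and 5.84 (5.76 ± 1.06). Foxo1 had the smallest SD of the 10 genes, but its heights were not all read at the same place. Its tallest summit lay 84, 47 and 1801 bp downstream of the start in replicates 1, 2 and 3. The values of G6pc overlapped those of Igfbp1 as well as those of Foxo1 and Gcgr. The tallest summit of Gcgr lay 1118, 1117 and 1110 bp downstream of its start. Within 500 bp of the start its mean height was 3.78. This listed start lay inside the RefSeq body of Gcgr. A reproducible region at the end of the body, 1.62 kb upstream of the listed start, had 5.20, 2.32 and 5.01. Without replicate 2 the means of G6pc and Gcgr were 6.50 and 6.31.

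Ppargc1a stood alone at the low end. Its start at chr5:51567725 had heights of 0.385, 0.835 and 0.434 (0.552 ± 0.247, SD, n = 3), the 1.40 percentile of open promoters, and all 3 values lay below every value of the other genes. The highest of the 3 came from replicate 2, and without that library the mean was 0.410. This was also the one member promoter without a peak in all libraries once a −log10 q of 10 or more was required.

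**Figure D1:**
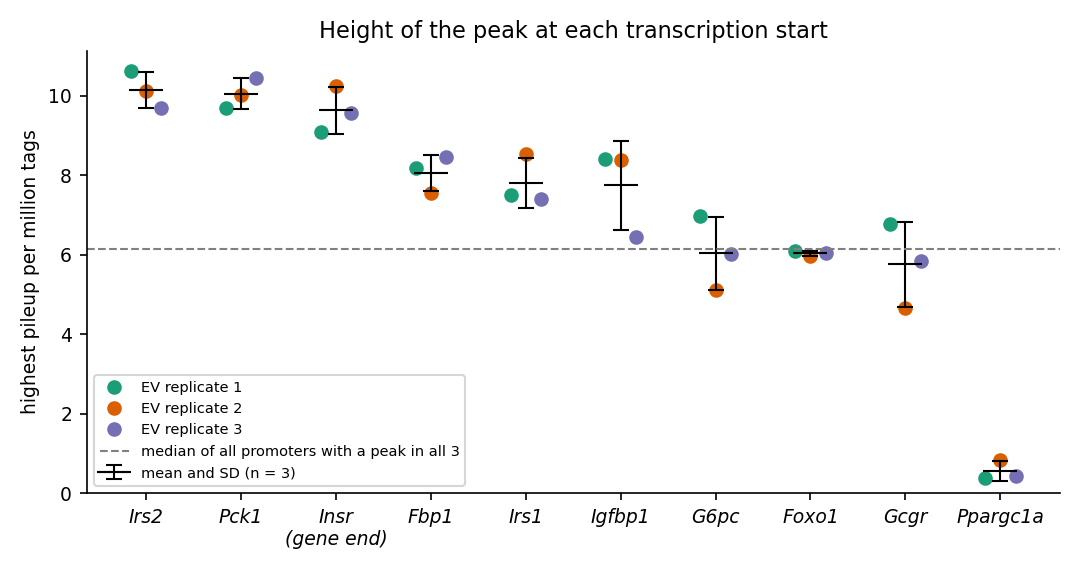
Height of the tallest peak at the transcription start of each gene (y axis, pileup per 1000000 tags), as 1 point per EV library with the mean and SD (n = 3); the dashed line is the median of all promoters with a peak in all 3 libraries, 6.13. Irs2, Pck1 and the higher-coordinate end of Insr lie above 9, and Ppargc1a lies below 1.

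The signal over 10000 bp around several of the starts was also high, though not in the order of their heights. No control was used, so this level includes the tags of the start's own peak and of peaks near it. The authors' fold enrichment divides each summit by its library's genome-wide level or, where that is larger, by the level over 10000 bp around the summit, and this background was recovered from the deposited pileup and fold. At the start of Pck1 it was 26.5 ± 3.93 times the genome-wide level of its library (SD, n = 3), the 99.9 percentile of open promoters, whose median was 4.47. Igfbp1 and Irs2 followed with 20.01 ± 3.54 and 19.6 ± 1.36 times, and their standard deviations overlapped. G6pc had 20.2, 8.58 and 13.4 times in replicates 1, 2 and 3, and Fbp1 had 12.2 ± 1.93 times. At Ppargc1a the background was the genome-wide level itself in every library. Among all CpG-poor promoters with a peak in all libraries the median background was 3.18, and Pck1, Igfbp1, G6pc and Fbp1 each exceeded it in every library.

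A high background lowers the fold. The authors' fold at the start averaged 3.58 at Pck1, 3.63 at Igfbp1, 4.32 at G6pc and 4.84 at Irs2, against a median of 11.3 over all open promoters. Insr, whose end had a background of 7.55 times, had a fold of 11.9. The order of the means thus depended on the measure: Pck1 was next to the tallest by height and the lowest by fold. Ppargc1a, the lowest by height, had a mean fold of 4.84, as did Irs2. At Ppargc1a that mean rested on replicate 2, with folds of 3.37, 7.30 and 3.83 in replicates 1, 2 and 3. At Irs2 the folds were 4.73, 5.18 and 4.61.

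**Figure D2:**
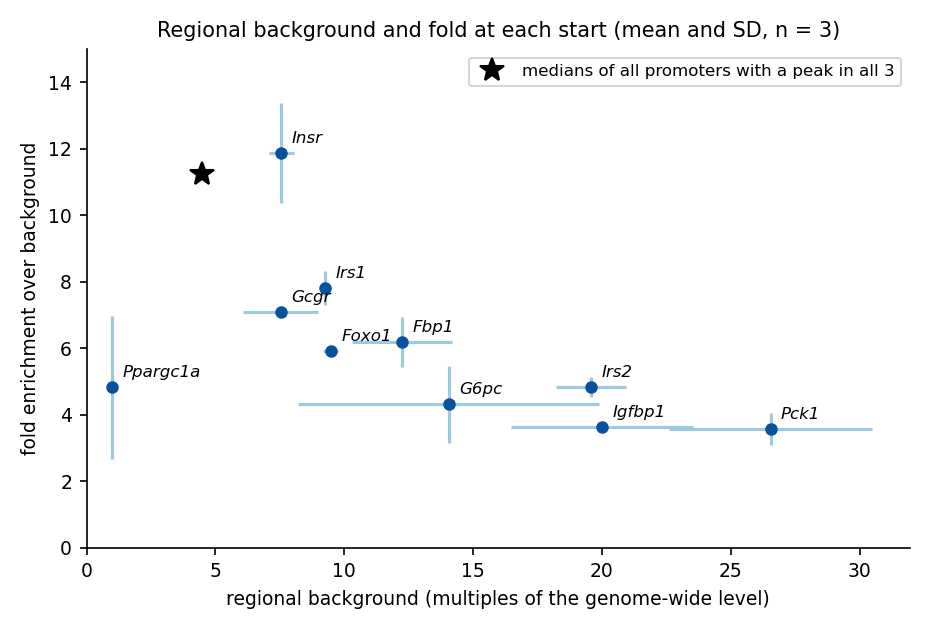
Regional background (x axis, multiples of the genome-wide level) and fold enrichment over it (y axis) at the start of each gene, as mean and SD of the 3 EV libraries; the star marks the medians over all promoters with a peak in all 3 libraries, 4.47 and 11.3. Pck1, Igfbp1 and Irs2 lie farthest to the right with folds under 5.

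The open stretch at the start also differed in length. The merged region spanned 3083 bp at Irs2, 2730 bp at Foxo1 and 2679 bp at Gcgr, and 1812 bp at Irs1, the 4 CpG-rich members. It spanned 1637 bp at Fbp1, 1202 bp at Pck1, 925 bp at Igfbp1, 715 bp at G6pc and 475 bp at Ppargc1a. The 4 CpG-rich members therefore had the longer merged regions, but this did not hold in each library. The tallest Gcgr peak spanned 538, 2333 and 559 bp in replicates 1, 2 and 3, against 1626, 1221 and 1621 bp at Fbp1. At Irs2 it spanned 2389, 3019 and 1552 bp. The median merged lengths over all open promoters were 1419 bp for CpG-rich and 1188 bp for CpG-poor ones.

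Away from the starts, the windows of these genes held many regions. Of the 294 merged regions, 176 had a peak in all 3 libraries and are called reproducible here, 55 had one in 2 libraries and 63 in 1. That is 59.9%, where 61.5% of all merged regions of the genome were reproducible, near the members' share. Of the regions with a peak in replicate 1 or 3, 80.8% had one in both in these windows, against 84.5% in the genome. Of the 176, 9 lay at a member's start, 69 elsewhere in a gene body and 98 in the flanks. The median window had 15.5 reproducible regions, or 12.02 per 100 kb, against 8 and 6.01 over 21631 protein-coding genes. The median height of the 176 was 2.41, against 1.71 for all 85711 reproducible regions, and 114 of them exceeded that value. Flanks hold other genes: 40 of the 152 regions around the 9 members with a listed start lay nearer to another listed start, and 12 of the 176 lay within 1000 bp of one.

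**Figure D3:**
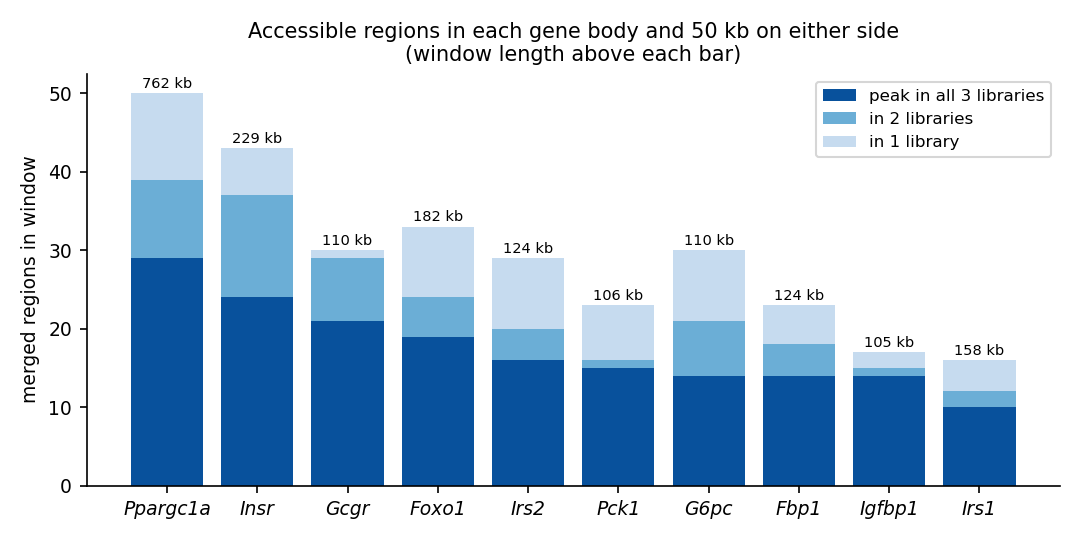
Number of merged accessible regions in each gene body and the 50 kb on either side (y axis), stacked by the number of libraries with a peak, with the window length above each bar. Ppargc1a has the most reproducible regions, 29, in the longest window, 762 kb, and Irs1 has the fewest, 10.

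Per length, the windows of Gcgr and Pck1 were the densest. Gcgr had 21 reproducible regions, 19.1 per 100 kb, at the 99.5 percentile of protein-coding genes, in a window that 7 other such genes share. Pck1 had 15 regions, 14.1 per 100 kb, and the 94.3 percentile. Igfbp1 had 13.4, Irs2 12.9, G6pc 12.7 and Fbp1 11.3 per 100 kb. Foxo1 and Insr each had 10.5, and Irs1 had 6.32. Ppargc1a had 29 regions, the 99.1 percentile by number, but 3.81 per 100 kb, the 34.1 percentile, because its RefSeq body runs over 661605 bp. No other protein-coding gene lay in the windows of Foxo1, Insr and Irs2.

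**Figure D4:**
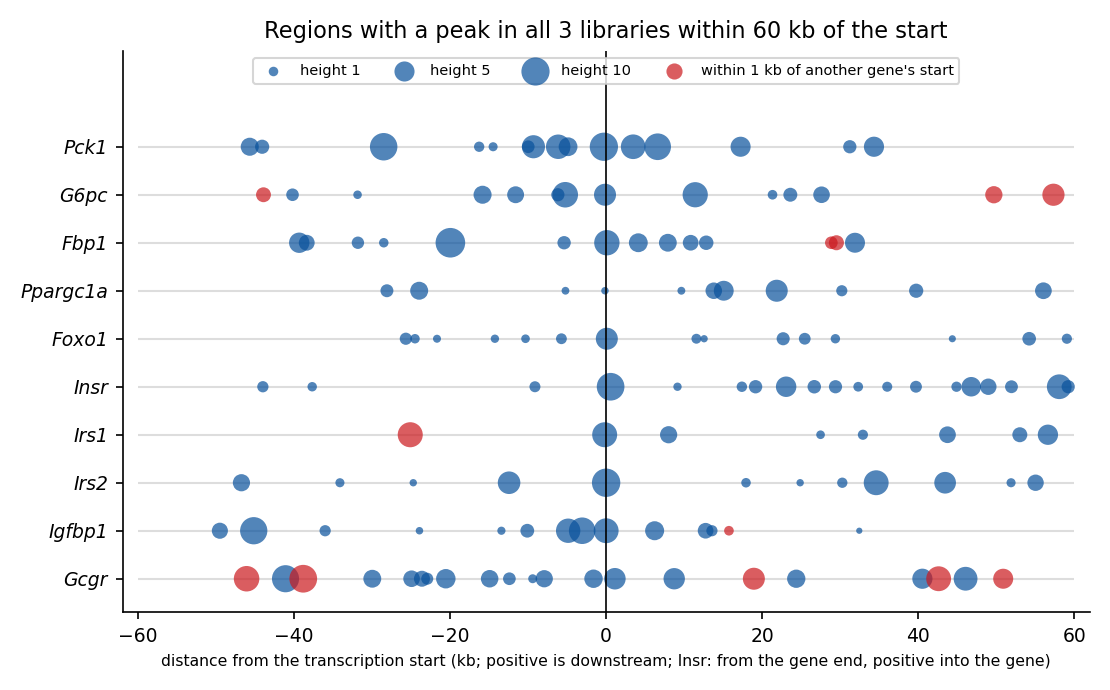
Reproducible regions within 60 kb of each start (x axis, distance in kb, positive downstream; for Insr from the higher-coordinate gene end, positive into the gene), with the area of each point growing with its mean height. Red points lie within 1 kb of another gene's start, and tall points away from the start include those of Fbp1 at 19.97 kb upstream and G6pc at 5.25 kb upstream.

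The enzyme genes each had distal regions about as tall as, or taller than, their promoter. At Pck1 a region 28.5 kb upstream, chr2:173123776-173125014, had heights of 9.66, 8.22 and 10.6 in replicates 1, 2 and 3. A region 6.60 kb downstream of the start, at the end of the gene, had 9.22, 5.83 and 11.7, and one 6.15 kb upstream had 6.77, 8.14 and 7.60. The region 28.5 kb upstream overlapped the promoter in its library values, and at the gene-end region replicate 2 was the lowest of the 3. Without replicate 2 the gene-end region had the highest mean height of the window, 10.47, above 10.12 at 28.5 kb upstream and 10.07 at the promoter. By fold it was far below the region 28.5 kb upstream. Its folds were 2.22, 2.12 and 2.17 in replicates 1, 2 and 3, against 14.1, 16.6 and 14.2 there.

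At G6pc the region with the highest mean was not the promoter but chr11:101362094-101363104, 5.25 kb upstream, with 7.86, 8.39 and 8.29 (8.18 ± 0.284, SD, n = 3). Each of its values exceeded every value of the G6pc promoter. A region 11.4 kb downstream of the start, chr11:101378246-101379777, had 10.5, 4.95 and 8.50, so replicate 2 lay well below the others. Without replicate 2 this region was the taller, with a mean of 9.49 against 8.08. The next in height, 57.3 kb downstream, sat at the start of Rundc1.

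At Fbp1 the region chr13:62907335-62908916, 19.97 kb upstream of the start, was the tallest of all 176, with 11.2, 10.2 and 11.7 (11.1 ± 0.796, SD, n = 3). All of its values exceeded those of the Fbp1 promoter. The region 39.4 kb upstream had 6.72, 2.49 and 6.21. A region 31.9 kb downstream, in Fbp2, the paralog known from muscle, had a mean of 4.95.

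At Ppargc1a, where the listed start was weak, regions elsewhere in the long gene body were tall. The region chr5:51867546-51869025, 301 kb upstream of the listed start and inside the RefSeq body, had heights of 6.97, 7.30 and 7.64 (7.30 ± 0.331, SD, n = 3). A region 21.9 kb downstream of the start, chr5:51545199-51546221, had 8.16, 2.81 and 7.18, and one 15.1 kb downstream had 5.09, 4.45 and 5.14. Without replicate 2 the region 21.9 kb downstream led, with a mean of 7.67 against 7.31 for the one at 301 kb. At the higher-coordinate end of the body, chr5:52115551-52116789, heights were 1.32, 2.49 and 1.07. All of these exceeded the listed start in each library. Transcripts were not measured, so which start these cells use was not examined.

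The other regulator, Foxo1, showed the opposite layout, with the promoter far above everything else in its window. Its next region, 75.1 kb downstream inside the gene, had 2.66, 3.92 and 2.82. The gene had 11 reproducible regions in its body besides the promoter, and none of the regions in its window apart from the promoter had a mean above 3.13.

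Among the insulin signalling genes, Insr carried its regions inside the gene, 20 of 24. The tallest besides the gene end, chr8:3220878-3222243, lay 58.1 kb from that end, with 7.40, 8.21 and 7.37. A region 23.1 kb from the end had 6.50, 3.54 and 5.53, and one at 46.8 kb had 6.05, 1.70 and 6.38. The first was similar in the 3 libraries, and the others were lowest in replicate 2. At Irs1 the region 25.1 kb upstream, at the start of the neighbour Rhbdd1, had 8.64, 6.66 and 8.31, and one 107 kb downstream had 6.96, 6.39 and 7.71. At Irs2 a region 34.6 kb downstream had 8.33, 6.46 and 8.51, and one 12.4 kb upstream had 6.75, 5.41 and 6.92. Both were below the Irs2 promoter in every library.

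Igfbp1 had a cluster just upstream of its start. The regions at 3.075 kb and 4.87 kb upstream had 9.60, 8.21 and 8.74 and 8.62, 6.45 and 7.25, heights overlapping those of its promoter. The highest mean in the window, at chr11:7151925-7153973, lay 45.2 kb upstream within Adcy1, an adenylyl cyclase gene, with 7.82, 10.8 and 9.45. It rested on replicate 2, without which its mean was 8.63 and that of the region 3.075 kb upstream was 9.17. The start of the neighbouring Igfbp3, a related binding protein, was far lower, with 0.593, 2.08 and 0.409 and its highest value in replicate 2. Around Gcgr the tallest regions lay far from its start. The region 38.8 kb upstream, at the start of the mitochondrial carrier gene Slc25a10, had 10.5, 9.26 and 9.31, and those 41.1 kb upstream and 46.1 kb downstream had 10.3, 7.59 and 9.84 and 9.38, 3.19 and 8.68. All 3 had higher means than the Gcgr promoter, and the latter pair lay within 1000 bp of no listed start. Without replicate 2 the region 41.1 kb upstream led, with a mean of 10.08 against 9.89 at Slc25a10.

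The library labelled EV replicate 2 had lower signal at many of these distal regions. Heights in it were 0.921 times the mean of replicates 1 and 3 in the median over 85621 reproducible regions of chromosomes 1 to 19 and X, and it was compared with the others after division by that value. A factor of 1.5, chosen after the values were seen, was used to call a region lower or higher than both other libraries. Of 155 member regions away from listed starts, 42 (27.1%) were lower in replicate 2, against 18.6% of all such regions, and 10 (6.45%) were higher, against 13.1%. At listed starts, 0 of 21 member regions were lower and 2 were higher, against 3.29% and 16.7% of all regions at listed starts, so these few regions were near the genome's shares. The median log2 ratio to the other libraries was -0.24 in the members' distal regions and -0.07 in all distal regions.

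The lower regions were spread over the genes. Ppargc1a had 11 of 28, Insr and Gcgr 6 each, of 24 and 15, and G6pc 5 of 10. Foxo1 had 5 of 18, Irs1 3 of 8, Pck1 2 of 14, Fbp1 2 of 11, and Irs2 and Igfbp1 1 each, of 15 and 12. Each of the 10 genes thus held at least 1, and the higher ones were 3 in Ppargc1a, 3 in Foxo1, 2 in Irs1, 1 in Fbp1 and 1 in Igfbp1. Without replicate 2, the median SD between libraries over the 176 regions was 7.85% of the mean, against 18.7% with it, and over all reproducible regions of the genome it was 7.39% against 19.3%.

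Markers of other cells also set replicate 2 apart. The stellate marker Lrat had heights of 0.864, 2.09 and 0.885 in replicates 1, 2 and 3, and the summed stellate markers 0.864, 2.72 and 0.885. The summed cholangiocyte markers had 1.99, 3.32 and 1.55, with Krt7 listed only in replicate 2, and the islet marker Pdx1 had 0.465 in replicate 2 and no peak in the others. Col3a1, Cftr, Gcg and Ins1 had no peak at their start in any library. The summed hepatocyte markers were lowest in replicate 2, through Apoa1 and Fga, while Hnf4a was highest there and Alb lay between the other libraries. The part of these differences in the results was not tested.

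**Figure D5:**
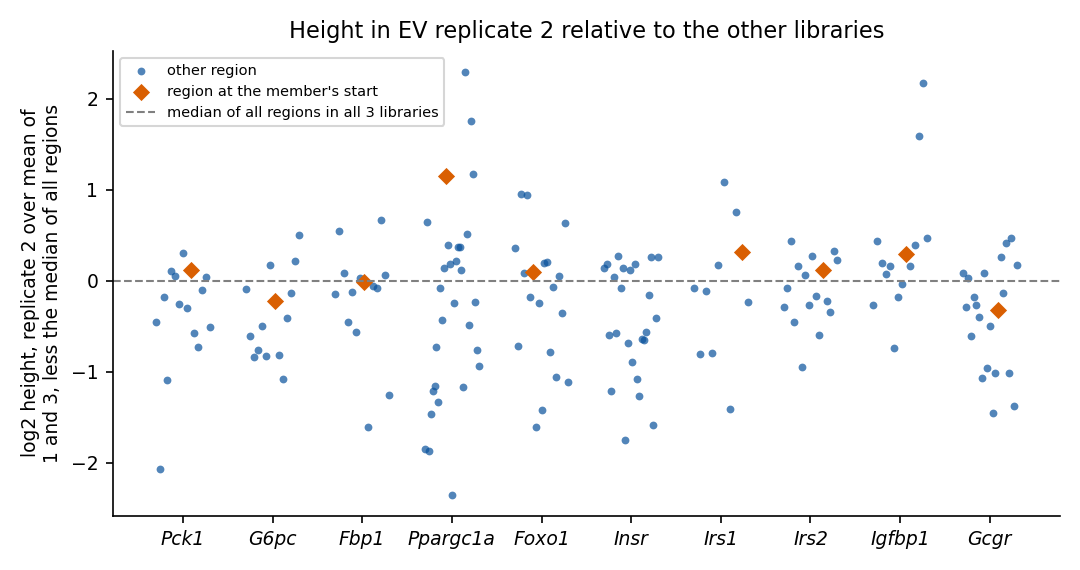
Log2 ratio of the height in EV replicate 2 to the mean of replicates 1 and 3 (y axis), less the median of all reproducible regions, for each reproducible region in the window of each gene, in order along the chromosome; diamonds are regions at the gene's own start. Most points of G6pc, Insr and Gcgr lie below the dashed line at 0.

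Regions absent from a library are those that did not pass the authors' threshold there. Among regions with a −log10 q of 10 or more in every library that had them, 59 in the windows were not shared by all 3 libraries, 20.1% of their merged regions against 18.7% in the genome. Of these, 22 were found only in replicate 2 and 20 were missing only from it, against 5 and 7 for replicate 1 and 3 and 2 for replicate 3. The counts for replicate 2 were 7.48% and 6.80% of the members' merged regions, against 9.47% and 5.59% of all merged regions, so replicate 2 set apart most such regions in the genome as well. The genome's shares were 1.02% and 0.902% for replicate 1 and 1.24% and 0.455% for replicate 3. The tallest of the 59 were at G6pc. Without that limit on q, its body held 6 regions not in all 3 libraries besides those near the start, so not all are among the 59. All 6 had a peak in replicate 1, 3 had one in replicate 3 and 0 in replicate 2, with heights from 2.63 to 7.74. The region 6.40 kb downstream had 7.74 in replicate 1 and 3.15 in replicate 3, and those 9.69 kb and 5.64 kb downstream had 6.11 and 5.43 in replicate 1 alone. These heights stood little above the regional background. The folds were 1.84 and 1.64 for the first region, and 1.48 and 1.46 for the other ones. A region 3.05 kb upstream of G6pc had 5.31 and 4.36 in replicates 1 and 3, and one 46.8 kb downstream of the Gcgr start had 4.64 and 5.05. The background at the G6pc start was likewise highest in replicate 1 and lowest in replicate 2. The background of a library bears on which summits pass, and its part was not tested.

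The wider pathways were mostly open at their starts. Of 188 entries in 6 lists of related genes, 163 had a listed start. Of these, 151 (92.6%) had a promoter peak in all 3 libraries, beside the 63.9% of all genes. Over all genes that share was 93.2% for CpG-rich and 38.3% for CpG-poor ones. The lists were not split by CpG content, so 92.6% cannot be read as particular to these pathways. All 27 genes of gluconeogenesis and glycogen breakdown with a listed start were open, with a median height of 7.34. The tallest were Mdh1, the cytosolic malate dehydrogenase, at 12.01 ± 0.532 (SD, n = 3) and Glud1, the glutamate dehydrogenase, at 10.9 ± 0.606. Of the glycolytic and insulin-induced genes, 21 of 23 were open, with a median of 7.02. Pdk1, a kinase of pyruvate dehydrogenase, and the glycogen branching gene Gbe1 led with 11.5 and 9.49. Slc2a9 and Hk3 had no peak at their listed starts in any library, though their windows held 18 and 4 reproducible regions.

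Of the insulin signalling genes, 41 of 43 were open, with a median of 6.63. The forkhead gene Foxo3 and the phosphatase gene Phlpp1 led with 11.3 and 11.2. Ide had no peak at its listed start, with 13 reproducible regions in its window. Irs4 had a peak at its start only in replicate 2, at 0.491. Of the glucagon and cAMP genes, 29 of 34 were open, with a median of 6.03. Creb1 and Atf2, which encode transcription factors that bind cAMP response elements, led with 10.7 and 9.16. At its start Adcy3, an adenylyl cyclase gene, had no peak in replicate 1, 1.42 in replicate 2 and 0.213 in replicate 3. Adcy4 had a peak at its start only in replicate 2.

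Of the partners of PGC-1 and regulators of gluconeogenesis, 24 of 25 were open, with a median of 6.77. The arginine methyltransferase gene Prmt1 and the nuclear receptor gene Esrra led with 11.8 and 10.7. Nr2f2 had no peak at its listed start, with 9 reproducible regions in its window. The IGF system had the lowest median, 3.75, with 9 of 11 open. Igfals, the acid-labile subunit made by hepatocytes, and the growth hormone receptor gene Ghr led with 6.97 and 6.48. Igfbp5 and Igfbp6 were not open in all libraries, and Igfbp1, which is not counted in the list, stood at 7.75. The lists leave out the 10 members, and each had as many genes with a peak in both replicates 1 and 3 as in all 3 libraries.

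The genes most like 3 of the members were found from the percentiles of promoter height, tallest region and numbers of reproducible regions in the body and the flanks, over 17274 genes and 3 libraries. Tcf3 was closest to Pck1, at a distance of 0.676 percentile units, with a promoter height of 9.97 and 3 and 12 regions in the body and flanks, the same numbers as Pck1. Ndst2 was closest to Igfbp1, at 0.749 units, with a promoter height of 7.73. Hnrnph1 was closest to G6pc, at 2.40 units, with a promoter height of 6.10 and a tallest region of 8.05. Nothing follows from this likeness about function.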

How the data were processed

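ATAC-seq peak lists of 3 EV hepatocyte libraries were used. Per the submitters' processing notes the tools were Bowtie2, Picard, deepTools and MACS2 and the build was mm10, and alignment settings are not given in the sources used here. Per the file headers, MACS 2.2.7.1 called peaks on each library alone, without a control, with tags shifted by 100 bp and extended to 200 bp, all duplicates in the input kept and a q cutoff of 0.05. Pileup, a signal of tags over the summit that is not scaled for depth, was deposited by the authors, as were −log10 p and q values and fold enrichment, a ratio to the library's own background. These scores are the authors', and no p-value was computed from them.

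Summits of 1 peak were joined, peaks sharing 1 bp were merged, and pileups were scaled per 1000000 header tags, with Python 3.11.15 and pandas 2.3.3. Background was recovered as (pileup + 1) / fold - 1, the way MACS writes fold, over the genome-wide level. Merging and overlap were checked on simulated peaks. Genes and promoters are from RefSeq, GRCm38.p6. Peak lists hold no counts at unlisted sites, so a missing peak has no depth or upper limit. All 10 members are named. For regions, the promoter and the tallest reproducible ones were named, and for lists the 2 tallest promoters and up to 2 not open. Members and lists were chosen with earlier results of these data known. Alternatives left out each library, and changed the peak threshold, overlap, flank, promoter window, scaling and measure.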

Additional observations from a re-analysis of the deposited data

How the results depend on the processing

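The 176 reproducible regions became 83 with the 50000 strongest peaks of each library, 105 with flanks of 10 kb and 78 in gene bodies alone. The median per window went from 15.5 to 7, 7 and 4 under the same settings, while the median of all genes went from 8 to 4, 3 and 1. The reproducible share was 49.0% with a reciprocal overlap of 50%, and ranged from 63.1 to 79.9% when 1 library was left out, which requires fewer lists to share a region. The median promoter height of 7.75 was 4.84 when read as the authors' fold. The tallest region of each gene was picked over all 3 libraries and kept under every setting. The median height of these fixed regions, 9.49, was 8.65 as fold and 8.98 to 9.59 with 1 library left out, lowest without replicate 2. Other regions led without replicate 2 at Pck1, G6pc, Ppargc1a, Igfbp1 and Gcgr, so 8.98 is not the median of the tallest there. Fold is another unit, so the values as fold show a different order and not a smaller height. Ppargc1a had no promoter peak in all libraries at a −log10 q of 10 or with 50000 peaks, which left 8 of 9 members open. Gcgr had a promoter height of 3.78 with a window of 500 bp. Apart from fold, 61 of 63 promoter heights and 49 of 50 heights of the fixed tallest regions moved by less than 1 SD. Leaving out 1 of 3 libraries cannot move a mean by 1 SD of the same libraries. Those settings could not count as moved, so for them the counts are no measure of stability. No paired analysis was possible because all libraries are labelled as 1 group. With 3 libraries and no counts outside peaks, sites below the threshold could not be compared.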
